A study of Rattus norvegicus with 15 samples.

Results

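The genes described here belong to the antioxidant and heme-degrading defence of the cell. They are Hmox1 (ENSRNOG00000014117), Cat (ENSRNOG00000008364), Sod1 (ENSRNOG00000002115) and Sod2 (ENSRNOG00000019048), taken by identifier from a list of genes with these functions. The list named 5 genes, and the table held 4 of them among its 17599 features. Nfe2l2 (ENSRNOG00000001548), whose product is the transcription factor NRF2, was not analysed here. Blood was drawn from rats of the outbred Sprague-Dawley stock, all male, aged 6 to 8 weeks and weighing 250 to 300 g, in a model of deep venous thrombosis, and RNA was taken from it whole. There were 5 groups of 3 libraries: sham, labelled as 0 h, and rats at 1 h, 6 h, 12 h and 72 h after modelling. No transgene or drug is named for any group. How the clot was formed, what the sham rats underwent and the anaesthesia are not stated by the labels. The run label is A&B for the 9 libraries of sham, 1 h and 72 h, and C for the 6 libraries of 6 h and 12 h. Time and run label therefore cannot be told apart wherever these sets of groups are compared. The labels number replicates without naming animals, so p-values rest on the spread among the 3 samples within each group, and that spread may be technical. The main fit pools this spread over all groups, so libraries outside a comparison also bear on its p-value.

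Heme oxygenase 1, the product of Hmox1, opens the heme ring into biliverdin, carbon monoxide and iron, and its gene is known to be induced by heme and by oxidative stress in monocytes and macrophages. The superoxide dismutases turn superoxide into hydrogen peroxide: Sod1 encodes the copper-zinc enzyme of the cytosol and Sod2 the manganese enzyme of the mitochondrial matrix, which inflammatory cytokines are known to induce. Catalase, encoded by Cat, splits hydrogen peroxide into water and oxygen and is abundant in red blood cells. NRF2 is known to bind antioxidant response elements near genes of this defence.

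The upstream sequences of Cat and Sod2 are shown because these genes stood on opposite sides of sham at 72 h in the values below. They are the 250 bases before the start of the RefSeq gene record (GRCr8 build, both on the minus strand), printed in the direction of the gene. Capitals mark matches on either strand to any of 4 motifs: the CCAAT box (CCAAT), the GC box (GGGCGG), the TATA box (TATAAA) and the core of the antioxidant response element (TGACNNNGC).
Cat, chr3:110329527-110329776: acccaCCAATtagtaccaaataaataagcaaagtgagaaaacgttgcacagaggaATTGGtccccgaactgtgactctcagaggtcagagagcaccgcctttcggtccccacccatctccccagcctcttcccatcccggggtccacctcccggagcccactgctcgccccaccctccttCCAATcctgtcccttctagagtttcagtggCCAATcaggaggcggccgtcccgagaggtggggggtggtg
Sod2, chr1:50050169-50050418: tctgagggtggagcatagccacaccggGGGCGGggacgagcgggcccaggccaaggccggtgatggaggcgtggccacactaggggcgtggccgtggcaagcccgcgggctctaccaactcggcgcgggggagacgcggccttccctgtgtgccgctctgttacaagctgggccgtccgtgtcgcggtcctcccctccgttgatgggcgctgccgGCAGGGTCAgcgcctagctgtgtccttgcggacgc
The Cat window held 4 CCAAT boxes, whose first bases lay 245, 195, 70 and 40 bases before the start, and no match to the other 3 motifs. In the Sod2 window there was 1 GC box 223 bases before the start and 1 match to the antioxidant response element core, on the opposite strand, 35 bases before the start. No matches overlapped. Among 33469 RefSeq windows of the same length, 34% held a CCAAT box, 30.5% a GC box, 12.9% a TATA box and 10.1% the antioxidant response element core. The Sod2 window was 71.6% G and C and the Cat window 58.8%, against a median of 51.2% over all windows. A match is a description of the letters and not evidence of a bound site. Of the 4 genes, 3 had an entry (Cat, Sod1 and Sod2); Hmox1 had none.

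The table gives a normalised read count: reads per feature divided by a factor for each library. Whole reads recovered from it came to 29.2 to 43.3 M (mega-reads) per library. The 5 most abundant features, each with over 1% of reads, left 4.67 to 7.65 M for all others. The library factor ran from 0.584 to 2.67, with both extremes at 12 h (replicates 2 and 3). Because the factor differs so much, values are also given as RPM, here reads per 1000000 reads outside those 5 features. On that scale the log2 difference of the median tested feature from sham was -0.40, -0.72, -0.54 and -0.41 at the 4 times in order, so a member's difference there is read against that shift. The files do not pair identifiers with gene names and the reference table matched 0 of them, so markers of blood cell types and the other genes of the NRF2 pathway were not looked up. In whole blood, fewer cells of a type and less RNA per cell cannot be told apart.

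None of the 4 genes passed an adjusted p of 0.05 in limma in any of 9 tests per gene, 36 in all, although all 4 were measured in every library. At an unadjusted p under 0.05 there were 8 of the 36, with 9 in edgeR and 10 in DESeq2, which after adjustment called 0 and 2. Few features passed at all: against sham, 0.135% of the 11117 tested passed at 1 h and 0.486% at 6 h, followed by 0.072% and 0% at the later times. At 72 h limma had 806 features at an unadjusted p under 0.05, edgeR called 0 and DESeq2 29. In the test for any difference over the 5 groups 1.11% passed, and over sham, 1 h and 72 h alone 0.009%. The genes nevertheless differed in how their libraries were arranged: Hmox1 was lowest at 1 h, Cat was lowest in sham on average, Sod2 was highest at 12 h and lowest at 72 h, and Sod1 showed no time that stood apart from sham on the deposited scale.

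**Figure D1:**
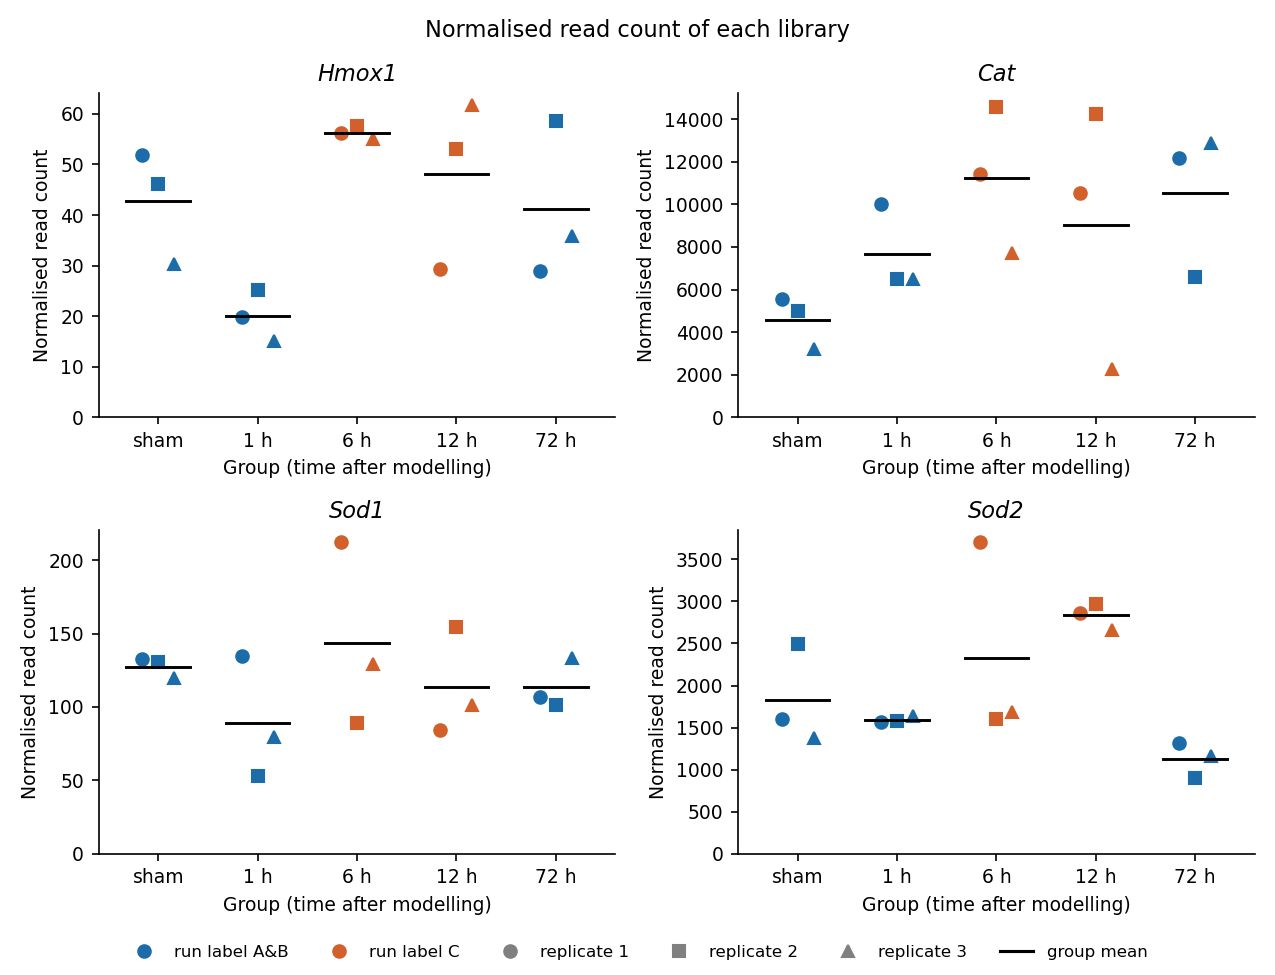
Normalised read counts (linear axes from 0) of the 4 genes in each of the 15 libraries by group; colour gives the run label, marker shape the replicate number and the black line the group mean of 3 libraries. The 3 libraries at 1 h have the lowest Hmox1 values of all, the 3 at 72 h the lowest Sod2 values, and 12 h replicate 3 has the lowest Cat value.

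Hmox1, the heme-degrading member, had its lowest values 1 h after modelling. Its normalised read count was 51.8, 46.1 and 30.4 in sham and 19.9, 25.2 and 15.03 at 1 h. All 3 libraries at 1 h lay below the other 12 on this scale, and the share of features doing so was not counted. The reads behind these values are few: 52, 59 and 47 in sham against 15, 26 and 16 at 1 h, with exact Poisson 95% intervals, which cover counting error only, of 34.5 to 76.1 over the sham libraries and 8.40 to 38.1 over those at 1 h. The log2 difference of 1 h from sham was -1.05 (SE 0.379, limma adjusted p = 0.490), with an unadjusted p of 0.0133. Complete separation from sham in the downward direction was found for 11.3% of all features at 1 h. In RPM outside the dominant features, Hmox1 had 10.1 ± 0.585 in sham and 3.63 ± 1.27 at 1 h (SD, n = 3 each), again without overlap, as did 19.6% of features. In RPM, 12 h replicate 1 (3.86) and 72 h replicate 1 (4.71) fell within the 1 h range (2.80 to 5.10). On that scale the log2 difference was -1.48 (SE 0.623, limma adjusted p = 0.838).

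At 6 h the Hmox1 libraries were close together on the deposited scale. They gave 56.2, 57.6 and 55.1, all above every sham library, which 13.7% of features also were. The reads behind them were 41, 51 and 77, whose counting error is wider than the spread of these values. In RPM they had 7.21, 6.75 and 11.8 and overlapped sham (9.44 to 10.5). The mean difference from sham was small, at a log2 value of 0.42 (SE 0.379, limma adjusted p = 0.609), and in RPM it had the other sign (-0.28, SE 0.623, limma adjusted p = 0.788). At 12 h the values spread from 29.4 and 53.1 to 61.7, and at 72 h from 29.0 and 35.8 to 58.6, so both groups overlapped sham. Their log2 differences from sham were 0.13 and -0.08 (SE 0.379 each, limma adjusted p = 0.909 and 0.979). The 58.6 of 72 h replicate 2 and the 61.7 of 12 h replicate 3 belong to the libraries with the largest factors, 1.57 and 2.67. In group means the order was 1 h (20.0 ± 5.09), 72 h (41.1 ± 15.5), sham (42.8 ± 11.1), 12 h (48.1 ± 16.7) and 6 h (56.3 ± 1.25) (SD, n = 3 each). Neighbours from 72 h through sham to 12 h differed by less than the spread within a group.

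Among the times under run label A&B, Hmox1 was higher at 72 h than at 1 h without overlap, as were 7.95% of features. In RPM the groups overlapped. The log2 difference of the deposited values was 0.97 (SE 0.379, adjusted p = 0.439 in limma, which 0.018% of features passed). The test over sham, 1 h and 72 h gave an unadjusted limma p of 0.0234 for Hmox1 and an adjusted p of 0.454. Over all 5 groups these were 0.0141 and 0.204. Limma was also run with array weights, estimated from the scatter of these same libraries around their group means and from no other measure. They ran from 1.34 to 1.73 in sham and from 0.565 (replicate 1) to 2.12 (replicate 3) at 1 h. In that fit Hmox1 fell at 1 h against sham by 1.16 on the log2 scale (limma adjusted p = 0.0483), and 3.17% of all features were called. The adjusted p of that comparison ran from 0.0483 to 0.962 over 28 alternatives, and all 28 gave a lower value at 1 h. Many of them could not move the estimate. Leaving out a library of another time, the replicate block and the fit to the compared groups return the main value. The rest reuse the same libraries, so this count is not a measure of support.

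**Figure D2:**
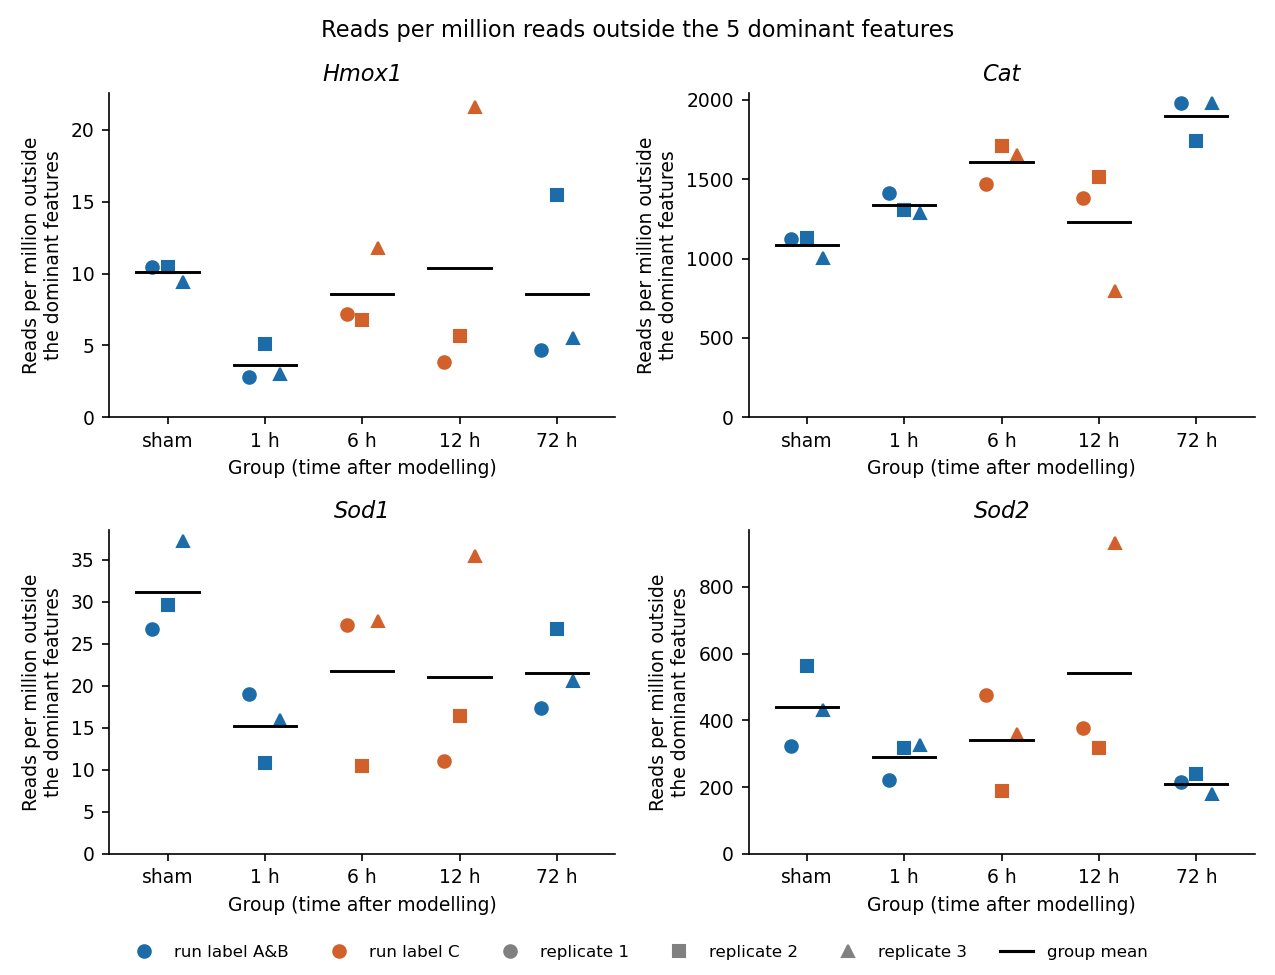
The same 4 genes as RPM, reads per 1000000 reads outside the 5 dominant features (linear axes from 0), with colour, marker shape and mean line as in the plot of normalised read counts. On this scale the Cat libraries of a group lie close together except for 12 h replicate 3 at 796, and sham, 1 h and 72 h do not overlap one another.

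Cat, the peroxide-splitting member, was lower in sham than at the times after modelling on average. Between 4982 and 12925 reads per library stand behind its values. Sham gave 5563, 4976 and 3221, and 1 h gave 9995, 6474 and 6477. The 6 h libraries gave 11448, 14590.6 and 7734, those at 72 h 12181, 6599 and 12873, and every library at 1 h, 6 h and 72 h lay above every sham library. The share of all features separated upward from sham was 9.6%, 13.7% and 7.78% at these times. At 12 h the values were 10531, 14254 and 2276, the last below every other library of the series.

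The log2 differences of Cat from sham were 0.74, 1.29, 0.65 and 1.18 for 1 h, 6 h, 12 h and 72 h (SE 0.597 each). Limma gave adjusted p of 0.856, 0.282, 0.671 and 0.718, and unadjusted p of 0.230, 0.0464, 0.295 and 0.0653. In group means the order was sham (4586 ± 1219), 1 h (7649 ± 2032), 12 h (9020.2 ± 6130.2), 72 h (10551 ± 3440.2) and 6 h (11258 ± 3432) (SD, n = 3 each). Each step between neighbours after 1 h was smaller than the spread within the groups it joins. The 12 h value turned on single libraries. Without 12 h replicate 3, Cat rose at 12 h by 1.46 on the log2 scale (limma adjusted p = 0.0320), in a fit that called 13.9% of all features. Without 12 h replicate 1 or 2 the difference was 0.35 or 0.13 and did not pass in limma. Each of these fits assumes that the remaining 12 h libraries vary like the other groups.

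In RPM the Cat libraries were tighter. Sham had 1084 ± 72.0, 1 h 1337 ± 65.1, 6 h 1610.4 ± 127 and 72 h 1899.98 ± 138 (SD, n = 3 each), while 12 h had 1232 ± 383. The lowest and highest values were 1001 and 1127 in sham, 1289.7 and 1411 at 1 h, 1467 and 1711 at 6 h, and 1740.1 and 1981 at 72 h, so no library of these 4 groups crossed into another group's range. The share of all features that keep these 4 groups apart was not counted. Upward separation from sham on that scale was found for 2.66%, 5.15% and 4.96% of features at 1 h, 6 h and 72 h. Between 1 h and 72 h it was found for 8.16%. The log2 differences from sham were 0.30, 0.57 and 0.81 in the same order (SE 0.208 each), with limma adjusted p of 0.878, 0.198 and 0.525, the unadjusted p at 72 h being 0.00126. At 12 h it was 0.13 (SE 0.208, limma adjusted p = 0.773). With 12 h replicate 3 also left out, an alternative added with the values in view, limma called Cat higher at 6 h (log2 difference 0.57, adjusted p = 0.0267), as well as 9.58% of all features in either direction. In that setting Cat also passed limma's test for any difference over sham, 1 h and 72 h (adjusted p = 0.0349), as did 0.702% of features.

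**Figure D3:**
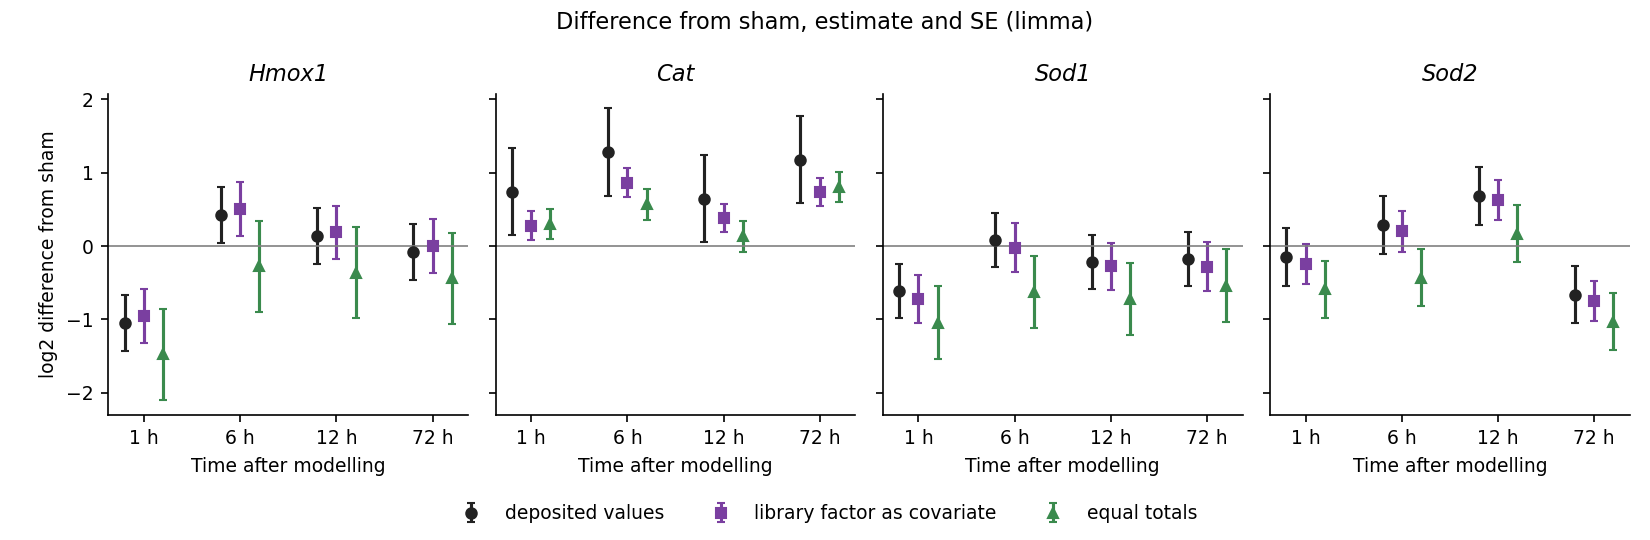
Log2 difference from sham (vertical axis) at each time for the 4 genes, as limma estimate and SE: black circles for the deposited values, purple squares for the fit with a term for the log2 factor, and green triangles for equal totals outside the dominant features (RPM). Cat lies above 0 at every time in all 3 fits with the smallest SE in the last 2, and Hmox1 lies lowest at 1 h in all 3.

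Cat moved with the library factor more closely than the other members. Over the 15 libraries its log2 value gave a Pearson's r of -0.89 against the log2 factor (permutation p = 2e-05, or 8e-05 after Benjamini-Hochberg adjustment for the 4 genes), and 2.18% of tested features had a lower r. Spearman's rho was -0.79 (permutation p = 0.000710, adjusted 0.00284). Leaving out the 2 libraries with the most extreme factors gave r = -0.80, and the 9 libraries of run label A&B and the 6 of C gave -0.85 and -0.94. The deposited value is reads divided by this factor, so part of this relation is by construction. The r values of Hmox1, Sod1 and Sod2 were 0.26, -0.25 and -0.15 (permutation p = 0.343, 0.373 and 0.600, adjusted 0.498, 0.498 and 0.600), with rho of 0.27, -0.52 and -0.15 (permutation p = 0.321, 0.0503 and 0.603, adjusted 0.428, 0.101 and 0.603). Without the 2 farthest libraries those r were 0.24, -0.15 and -0.34. They were 0.39, -0.13 and -0.02 within A&B, and 0.37, -0.34 and -0.28 within C. With the log2 factor as a covariate, the SE of the Cat difference from sham at 6 h was 0.196 in place of 0.597, and Cat rose at 6 h by 0.87 on the log2 scale (limma adjusted p = 0.0121). That fit called 6.99% of all features at 6 h. The corresponding values at 1 h, 12 h and 72 h were 0.28, 0.39 and 0.74 (limma adjusted p = 0.776, 0.299 and 0.149).

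**Figure D4:**
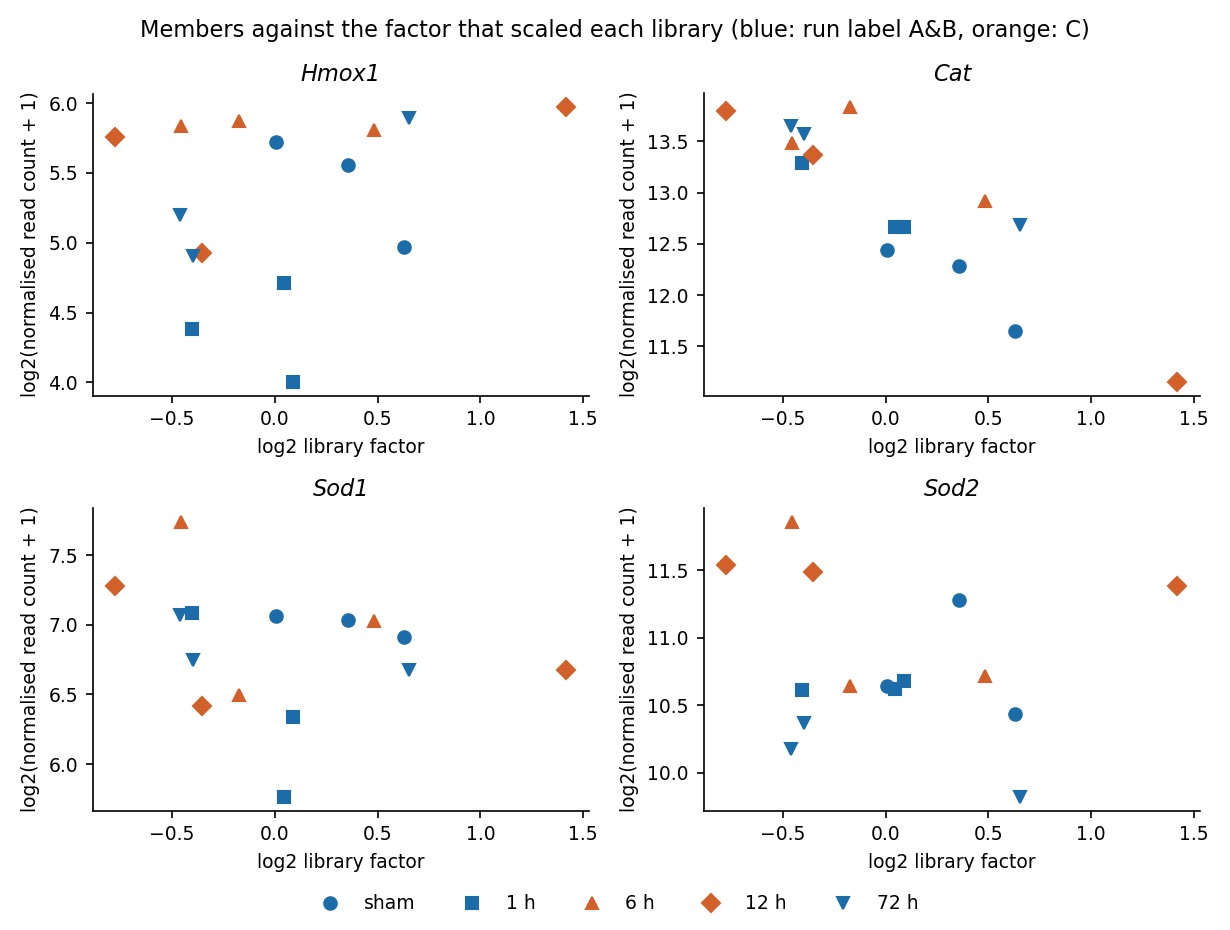
Log2(normalised read count + 1) of each gene against the log2 library factor over the 15 libraries; marker shape gives the group and colour the run label. Cat falls along the factor (r = -0.89), while the other 3 genes scatter.

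Sod1, the cytosolic dismutase, had sham libraries close together and widely spread libraries afterwards on the deposited scale. Its normalised read count was 133, 130.4 and 119.6 in sham, 135, 53.3 and 79.8 at 1 h, and 213, 89.2 and 129 at 6 h. At 12 h it was 84.4, 154 and 101, and at 72 h 107, 101 and 134. Every group overlapped sham. The log2 differences from sham were -0.61, 0.08, -0.21 and -0.17 at 1 h, 6 h, 12 h and 72 h (SE 0.369 each, limma adjusted p = 0.783, 0.934, 0.830 and 0.943). Leaving out 1 library moved the 1 h value to between -0.95 (without 1 h replicate 1) and -0.29 (without 1 h replicate 2), and the 12 h value to between -0.46 (without 12 h replicate 2) and -0.027 (without 12 h replicate 1). The order of group means was 1 h (89.4 ± 41.7), 12 h (113 ± 36.4), 72 h (114 ± 17.3), sham (128 ± 6.95) and 6 h (144 ± 62.9) (SD, n = 3 each), and no neighbours in it differed by more than the spread of the wider group. In RPM the SD was 5.38 in sham and 4.18, 9.82, 12.8 and 4.76 at 1 h, 6 h, 12 h and 72 h (n = 3 each). On that scale all libraries at 1 h (10.8 to 19.1) and at 72 h (17.3 to 26.7) lay below all of sham (26.8 to 37.2), as did 19.6% and 10.1% of features. The log2 differences there were -1.05 and -0.54 (SE 0.495 each, limma adjusted p = 0.878 and 0.820). Sod1 had 55 to 271 reads per library.

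Sod2, the mitochondrial dismutase, had its highest group mean at 12 h and its lowest at 72 h. Sham gave 1597, 2488 and 1382 and 1 h gave 1562, 1575 and 1643, the latter within 100 of each other and inside the sham range. At 6 h the libraries gave 3708, 1599.6 and 1679.9, so a single library stood high. At 12 h they gave 2865, 2971 and 2666, all above sham, where 5.89% of features were separated upward. At 72 h they gave 1320.0, 904 and 1158, below the other 12 libraries. Against sham alone 9.85% of features were separated downward at that time, and the share below all 12 was not counted. Depth limits these values little, with 841 to 7128 reads per library.

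The log2 differences of Sod2 from sham were -0.15, 0.29, 0.68 and -0.66 for the same times in order (SE 0.392 each). The limma adjusted p were 0.957, 0.756, 0.467 and 0.739. The order of group means was 72 h (1127 ± 210), 1 h (1593 ± 43.3), sham (1822 ± 586), 6 h (2329 ± 1195) and 12 h (2834 ± 155) (SD, n = 3 each). The steps from 1 h to sham, from sham to 6 h and from 6 h to 12 h were smaller than the larger spread of the groups they join. In RPM, 72 h (178 to 238) again lay below sham (323 to 564), as did 10.1% of features, at a log2 difference of -1.03 (SE 0.390, adjusted p = 0.766 in limma). On that scale 6 h replicate 2 (188) and 1 h replicate 1 (221) fell within the 72 h range. The 12 h libraries no longer stood apart there: they had 376, 316 and 932, the last in replicate 3, and the log2 difference of 12 h from sham was 0.17 (SE 0.390, limma adjusted p = 0.854). RefSeq lists a pseudogene, Sod2-ps1, and the sources do not say how reads matching both copies were counted, so its counts are uncertain to that extent.

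The mean of 6 h and 12 h against the mean of 1 h and 72 h is the contrast that time and run label share in full, and 1.84% of features passed it. Sod2 was higher at 6 h and 12 h by 0.89 on the log2 scale (SE 0.277, limma adjusted p = 0.110), and Hmox1 by 0.85 (SE 0.268, limma adjusted p = 0.117). Their unadjusted p were 0.00527 and 0.00596. Sod1 had 0.32 (SE 0.261, limma adjusted p = 0.564) and Cat 0.00 (SE 0.422, limma adjusted p = 0.998). DESeq2 on the recovered reads called Sod2 (0.94, adjusted p = 0.00413) and 3.53% of the unfiltered 17599 features. On the 11117 filtered features edgeR did not call Sod2 (0.93, adjusted p = 0.0779). The value of Sod2 passed in limma without 12 h replicate 3 (0.91, adjusted p = 0.0363), where 8.6% of all features passed, and over 28 alternatives its adjusted p ran from 0.00413 to 0.402. With the library factor as a covariate limma called both Sod2 (0.91, adjusted p = 0.00413) and Hmox1 (0.82, adjusted p = 0.0399), in a fit that called 13.2% of all features.

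Single times under different run labels were compared where all libraries of a gene lay on opposite sides of the sham mean, a choice made from the values. Hmox1 at 6 h lay above 1 h without overlap, as did 11% of features, with a log2 difference of 1.47 (SE 0.379, adjusted p = 0.0746 in limma, which 0.684% of features passed). Sod2 at 12 h lay above 1 h without overlap, as did 7.44%, by 0.83 (SE 0.392, adjusted p = 0.325 in limma, which 1.38% passed), but overlapped it in RPM. At 72 h every Sod2 library lay below those at 12 h, as did 4.67% of features, with a log2 difference of -1.34 (SE 0.392, adjusted p = 0.323 in limma, which 0.198% passed). The separations in RPM that follow were picked because the groups did not overlap. In RPM, Hmox1 and Cat were higher at 6 h than at 1 h, as were 6.57% of features. Their log2 differences there were 1.20 and 0.27 (limma adjusted p = 0.537 and 0.721). Also in RPM, Cat was higher at 72 h than at 12 h and Sod2 lower. This held for 3.53% and 2.68% of features in those directions, with log2 differences of 0.68 and -1.20 (limma adjusted p = 0.801 and 0.873).

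Within a single run label the members were compared at 12 h against 6 h and at 72 h against 1 h. Between 12 h and 6 h, where limma called 0% of features (423 at an unadjusted p under 0.05) while edgeR called 0 and DESeq2 12, the log2 differences were -0.29 for Hmox1, -0.64 for Cat, -0.30 for Sod1 and 0.40 for Sod2, with a limma adjusted p of 0.990 for each. Between 72 h and 1 h, Cat had 0.43, Sod1 0.44 and Sod2 -0.52 (limma adjusted p = 0.896, 0.784 and 0.745). All 3 Sod2 libraries at 72 h lay below those at 1 h, as did 8.86% of features, but in RPM the groups overlapped.

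Ratios of 2 genes within a library do not depend on its factor. They are given without a test, and since gene lengths differ they are compared only between groups. How many pairs of features separate groups in the same way was not counted. The ratio of Cat to Sod2 reads, added after the values were seen, was 3.48, 2.00 and 2.33 in sham and 9.23, 7.30 and 11.1 at 72 h. At 1 h it was 6.40, 4.11 and 3.94, above sham and below 72 h in all libraries. At 6 h it ran from 3.09 to 9.12 and at 12 h from 0.854 to 4.80, overlapping sham. The ratio of Cat to Sod1 was 26.9 to 42.0 in sham and higher in all libraries at 1 h (74.0 to 121), 6 h (53.9 to 164) and 72 h (65.2 to 114), while 12 h spread from 22.5 to 125. The ratio of Sod2 to Sod1 was 11.6 to 19.1 in sham, 11.6 to 29.5 at 1 h, 13.0 to 17.9 at 6 h, 19.3 to 33.9 at 12 h and 8.67 to 12.4 at 72 h, so every library at 12 h lay above sham and above 72 h. Hmox1 to Sod2 was lower at 1 h (0.00915 to 0.0160) than in sham (0.0185 to 0.0325). It overlapped sham at 6 h (0.0152 to 0.0360), 12 h (0.0103 to 0.0231) and 72 h (0.0219 to 0.0648), and 2 of the 12 h libraries and 1 of the 6 h libraries also lay below sham.

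**Figure D5:**
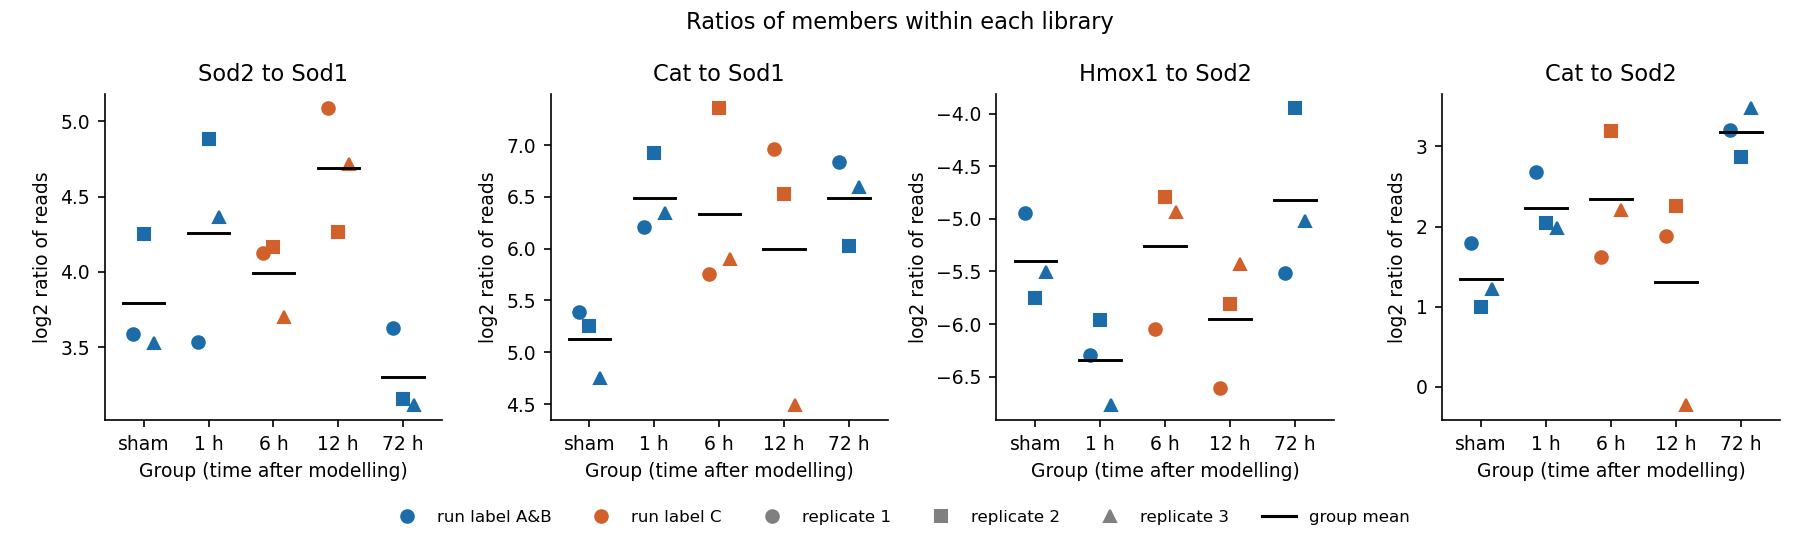
Log2 ratio of reads between pairs of members within each library, by group; colour gives the run label, marker shape the replicate number and the black line the mean of 3 libraries. The 72 h libraries have Cat to Sod2 ratios of 7.30 to 11.1, above all sham and 1 h libraries, and 12 h replicate 3 lies lowest in both ratios with Cat as numerator.

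The 4 genes did not follow one another closely over the 15 libraries. Of the 6 pairs, Hmox1 and Sod1 had the largest r, 0.43 (permutation p = 0.114, Benjamini-Hochberg adjusted 0.686; rho 0.20, permutation p = 0.473, adjusted 0.759). It was 0.50 when the 2 libraries with the most extreme Hmox1 values were left out, and 0.39 and 0.41 in the separate run labels. The other 5 pairs had r between -0.06 and 0.33 (adjusted permutation p of 0.687 to 0.950). The libraries share group, run label and factor, so these values describe the libraries only. Each gene had closer companions among other annotated features by r of the log2 values: the 3 closest to Cat reached 0.98 each, and they too followed the log2 factor (r of -0.86, -0.84 and -0.83). For Hmox1 the closest was ENSRNOG00000046452 (r = 0.91, mean value 179) and for Sod2 it was ENSRNOG00000037352 (r = 0.86, mean value 22.5). The closest to Sod1 reached 0.82. These features were picked for their likeness from the 8918 annotated ones among the 11117 tested, and their names are not given.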

How the data were processed

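Messenger RNA was measured in 15 whole blood samples, drawn into PAXgene tubes per the labels' protocols. Bowtie 0.12.2 and build Rnor_6.0 appear, with no role, per the submitters' processing notes. The counting tool, strand setting and annotation are not given either. The deposited signal is reads per feature divided by a factor for each library, worked out from the values: 100% lay within 0.01 of a whole multiple of one step (less well tested in sham replicate 1, whose step is near 1). The members, lists and tests were chosen with earlier results of these data known. The 11117 features reaching a value of 10 in 3 or more libraries entered limma 3.58.1 (trend, robust; R 4.3.3) on log2(value + 1), all 15 libraries in 1 fit, two-sided, with Benjamini-Hochberg adjustment over all features. This understates differences of low features. The fit was run on simulated independent values with no library factor and no library of unequal spread, so that run cannot show how it behaves under those. edgeR 4.0.16 and DESeq2 1.42.0 on recovered reads, the replicate block, other filters, pseudocounts, scalings, a factor covariate, library weights and each library left out were alternatives. DESeq2 took all 17599 features and edgeR the 11117. Correlations used 100000 permutations. The genes named are the members and, by identifier, the feature most like Hmox1 and the one most like Sod2. Lists of pathway genes and cell type markers could not be matched to identifiers and were not tested. No pair of libraries agreed within counting error (lowest chi-square per degree of freedom 25.9).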

Additional observations from a re-analysis of the deposited data

Results flagged for a closer look

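For 2 genes, all libraries of one time lay above the sham mean and all libraries of another time lay below it. The share of all features meeting this rule was not counted, so the number of genes flagged carries no meaning by itself. Hmox1 was below the sham mean of 42.8 in 3 of 3 libraries at 1 h and above it in 3 of 3 at 6 h. The difference of 6 h from 1 h, a comparison added after the data were examined, was 1.47 on the log2 scale (SE 0.379, limma adjusted p = 0.0746), and over 28 alternatives its adjusted p ran from 0.0146 to 0.537. Sod2 was below the sham mean of 1822 in 3 of 3 libraries at 1 h and at 72 h and above it in 3 of 3 at 12 h. Its log2 difference was 0.83 at 12 h against 1 h (SE 0.392, limma adjusted p = 0.325, range 0.0339 to 0.685) and -1.34 at 72 h against 12 h (SE 0.392, limma adjusted p = 0.323, range 0.0137 to 0.998). None of the 3 passed the test. All 3 compare libraries of different run labels, so time and run label cannot be told apart in them.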

How the results depend on the processing

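No member was called in any comparison under edgeR, the replicate block, fits to the compared groups alone, either other filter, either other pseudocount, equal totals or quantile normalization, and 0 of 4 were called in every comparison with the replicate block. The replicate numbers were not taken to pair samples. Deviations correlated over 0.1 in 14 of 30 same-numbered pairs, whose r ran from -0.33 to 0.45 (median 0.080). Over the 60 other pairs r ran from -0.32 to 0.47 (median -0.046), and those over 0.1 were not counted. Of the 15 libraries, 6 correlated best with their own number, and the count under random numbering was not worked out. The block moved the count of features called at 6 h from 54 to 123. Settings that called members also called more of all features, whose share follows in parentheses. With array weights 1 member was called in each of 1 h (3.17%), 6 h (11%) and 12 h (32.4%) against sham, 6 h (8.23%) and 12 h (26.3%) against 1 h, 72 h against 12 h (7.48%) and the mean contrast (15.8%), and 3 over the 5 groups (31.8%). These weights, estimated from the same values, were 4.34, 0.458 and 0.202 for 12 h replicates 1, 2 and 3. The weighted 12 h mean therefore rests largely on replicate 1. With the library factor as a covariate 1 was called at 6 h against sham (6.99%), at 6 h (11%) and 12 h (9.91%) against 1 h and at 72 h against 12 h (1.94%), and 2 in the mean contrast (13.2%) and over the 5 groups (12.1%). DESeq2 called 1 in the mean contrast (3.53%), at 6 h against 1 h (2.35%), at 72 h against 12 h (0.477%) and over the 5 groups (4.3%). These DESeq2 shares are of the unfiltered 17599 features, the others of 11117 or, under equal totals, 11112, so they are not on a common base. With each library left out, the number called ran from 0 to 1 at 12 h against sham, in the mean contrast and at 6 h against 1 h, each time 1 without 12 h replicate 3 (13.9%, 8.6% and 3.32%), and was 0 elsewhere. Equal totals without 12 h replicate 3 called 1 at 6 h against sham (9.58%), over the 5 groups (11.4%) and over sham, 1 h and 72 h (0.702%). The causes of these changes were not tested.

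Direction turned in these uncalled log2 differences. Under equal totals, Hmox1 had -0.28 at 6 h and -0.36 at 12 h, Sod1 -0.63 and Sod2 -0.43 at 6 h against sham, and Cat -0.20 in the mean contrast. With 12 h replicate 3 also left out these were -0.28, -1.08, -0.63, -0.43 and -0.061, and Sod2 at 12 h had -0.31 and Sod1 in the mean contrast -0.11. The median tested feature had -0.72 at 6 h, -0.54 at 12 h and -0.19 in the mean contrast under equal totals. Without 12 h replicate 3 its values there were -0.72, -1.12 and -0.44. The signs on this scale are therefore read against that shift. Quantile normalization gave Sod2 -0.25 at 6 h and Cat -0.26 in the mean contrast. The covariate gave Sod1 -0.020 at 6 h and Hmox1 0.0076 at 72 h. Array weights gave Sod1 -0.093 at 6 h and Hmox1 -0.40 at 12 h. Leaving out 1 library gave ranges of -0.089 to 0.45 (Hmox1, 12 h), -0.36 to 0.13 (Hmox1, 72 h), -0.32 to 0.10 (Sod2, 1 h), -0.11 to 0.53 (Sod2, 6 h) and -0.24 to 0.38 (Sod1, 6 h) against sham. For 12 h against 6 h they were -0.50 to 0.024 (Hmox1), -1.15 to 0.17 (Cat) and -0.59 to 0.029 (Sod1), and for Cat in the mean contrast -0.25 to 0.41. Counting error limits Hmox1 most, with 15 to 165 reads per library. Counts over all features moved more: against sham they were 15, 54, 8 and 0 at the 4 times in order, 0, 42, 6 and 0 in edgeR, 72, 636, 313 and 29 in DESeq2 and 352, 1223, 3604 and 108 with array weights. Without 12 h replicate 3 they were 101, 753, 1546 and 15. In the mean contrast 205 features passed, with 25 under equal totals and 1753 with array weights, and over the 5 groups 123, with 23 and 3531.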
